A study of Mus musculus with 6 samples.

Results

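The baseline transcriptome of DC2.4, an immortalised dendritic line of the mouse, was described from its control libraries, with attention to the lineage genes they express. They were chosen by the genotype label Control, which 3 of the 6 libraries of the series carry. The other 3 libraries come from the PD-L1 knockout derivative of the line, in a study whose title concerns PD-L1 and ferroptosis of dendritic cells during chemotherapy, and they enter no value or comparison here. The labels give no treatment, age, passage or vector for the control cells and do not say whether the libraries came from separate cultures, so the spread given below is that between these libraries and may be technical. RNA from whole cultures was measured, so fewer cells expressing a gene and less of its RNA per cell cannot be told apart.

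Dendritic cells take up antigen, present it on MHC molecules and prime T cells. Conventional dendritic cells develop under the cytokine Flt3 ligand and fall into type 1 cells (cDC1, which depend on the transcription factors Irf8 and Batf3 and cross-present antigen on class I molecules) and type 2 cells (cDC2, marked by Sirpa and Irf4). Macrophages and monocytes depend instead on the receptor Csf1r and carry the Fc receptor Fcgr1 and the adhesion receptor Adgre1 (F4/80). As background, DC2.4 was made from bone marrow of C57BL/6 mice with retroviral vectors carrying GM-CSF and oncogenes, and is used as an antigen-presenting line.

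Spi1 (PU.1), the ETS-family factor that specifies myeloid cells, binds purine-rich sites with a GGAA core, and its transcript was well expressed in these libraries. The letters GAGGAAGT, a site of this type, were therefore searched on both strands of RefSeq promoter windows (GRCm38.p6, 250 bases before to 50 after a start site). They were found in 3.20% of all 32851 windows, in 3.22% of the windows of expressed genes and in 3.24% of those of genes with 0 counts. Of the 38 expressed genes of the leukocyte and macrophage lists below, 28 had a window, and 4 of their 37 windows (10.8%) held the letters, those of Cd37, Cd53, Cyth4 and Vav1. The ETS-IRF composite element, searched in its consensus form with a GGAA core and an IRF core, was in 2.72% of all windows, 2.29% of expressed and 3.05% of zero-count ones, and in 2 of the 37 (Cd68 and Spn). The pair of IRF cores of the interferon-stimulated response element was in 3.44%, 2.86% and 3.79%, and in 0 of the 37. The letters TCATGTG, of the type bound by Mitf and its relatives and added after the data were seen, were in 3.77%, 2.2% and 4.55%, and in 0 of the 37. The motifs can overlap, and a match is a description of the letters, not a binding site. The upstream stretches of Vav1 and Spp1 were chosen because they hold GAGGAAGT and because Vav1 is a leukocyte-restricted signalling gene and Spp1 is the highest immune-related gene of these cells. The capitals mark GAGGAAGT, which starts 11 bases before the start site of Vav1 (chr17:57279049-57279099, plus strand) and 113 bases before that of Spp1 (chr5:104434958-104435045, plus strand). A second window of Spp1 and those of Gpnmb, Itgax, Flt3 and Fcgr1 held none of these motifs.
Vav1: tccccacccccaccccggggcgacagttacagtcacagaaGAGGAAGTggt
Spp1: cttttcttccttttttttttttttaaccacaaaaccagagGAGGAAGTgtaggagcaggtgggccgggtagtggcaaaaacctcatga

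Counts were divided by the library total to give CPM (counts per 1000000 counts), and a gene was called expressed where all 3 libraries had at least 1 CPM. Libraries 1, 2 and 3 held 10918498, 15909256 and 23250065 counts, so that 1 CPM stood for 10.9, 15.9 and 23.3 counts. Of 31205 genes in the table, 10664 (34.2%) were expressed, 7036 had some count without reaching the rule and 13505 had 0 counts. A count of 0 over the 3 libraries allows a level of up to 0.0599 CPM (3 counts of the summed total), which covers counting error only. Among protein-coding genes 10209 of 21431 (47.6%) were expressed. The median expressed gene had 42.0 CPM. Because long genes give more reads, levels of different genes are compared as CPM per kilobase of exon, for which the median of expressed genes was 8.70. Values with ± are the mean and SD of n = 3 libraries.

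The libraries agreed closely for most genes, and 2 of them stood apart for small sets. The CV over libraries was 11.6% for the median expressed gene, where counting alone gives 3.96%, and 8603 expressed genes (80.7%) had a CV under 20%. The biological coefficient of variation estimated by edgeR was 14.2%, and it was 9.90% without library 1. Libraries 2 and 3 differed by 2-fold or more in 50 expressed genes, against 244 between libraries 1 and 2 and 308 between libraries 1 and 3.

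Library 2 stood apart by a mixed set of genes, some of them connective-tissue genes. At 10 times or more above both other libraries there were 32 genes in library 2 (0.103% of the table), 1 in library 1 (0.0032%) and 0 in library 3 (0.0%). Col1a1, the main chain of type I collagen, had 4, 2235 and 5 counts in libraries 1, 2 and 3, and Fn1 (fibronectin) had 1, 1382 and 1. Il31ra, an interleukin-31 receptor chain, had 16, 847 and 10, and Cavin1, a coat protein of caveolae, had 16, 421 and 20. In libraries 1 and 3 each of these transcripts stayed at or below 1.47 CPM. Tpm2, a tropomyosin, had 3, 354 and 1 counts, Erdr1 had 0, 263 and 4, and the adhesion molecule Cdh11 had 8, 232 and 11. Ccn1, a matricellular protein, had 0, 222 and 0, the vasopressin receptor Avpr1b had 0, 219 and 0, and the LIM protein Fhl1 had 0, 180 and 0. The 32 genes made up 0.0531% of the counts of library 2. Among them were 3 Hox genes and 5 members of the stromal and fibroblast list. The list of 25 stromal and fibroblast genes summed to 13.4, 274 and 9.68 CPM in libraries 1, 2 and 3, and 1 member was expressed. Its members Sparc (1, 103 and 2 counts), Fbn1 (0, 116 and 1), Acta2 (7, 59 and 6), Thbs1 (0, 40 and 0) and Col1a2 (0, 22 and 0) likewise passed 1 CPM in library 2 alone, whereas Col4a1 (16, 13 and 13) did so in library 1. Its members Pdgfra, Thy1, Dcn, Lum, Lox and Ccn2, defining genes of fibroblasts, had 0 counts in every library. Between-library statements on Col1a1, Fn1 and Il31ra therefore rest on library 2, and the part of other cells in these counts was not tested.

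Library 1 was low in interferon-induced and immediate early genes. By a rule added after the data were seen, 38 genes (0.122%) were at least 4 times lower in library 1 than in both others, against 1 for library 2 (0.0032%) and 10 for library 3 (0.032%). They include Oas3, an interferon-induced enzyme (7.24, 37.5 and 36.3 CPM), and Id3, an inhibitor of helix-loop-helix factors (5.50, 24.7 and 30.7). They also include the lectin Clec10a (1.56, 16.0 and 20.6) and the G-CSF receptor Csf3r (0.641, 4.53 and 4.13). Library 1 was the lowest of the 3 for 46.2% of all expressed genes. In lists also drawn up after the data were seen, it was the lowest for 11 of 12 expressed interferon-induced genes and for 14 of 14 expressed immediate early genes. Of the 38 genes above, 5 are in the interferon-induced list. Genes seen to be low in library 1 could enter both lists, so these counts are a description only. Without library 1, 19 of the 26 interferon-induced genes in the table were expressed, against 12 with it. The other lists below changed by at most 1 member when any library was left out, except the list of cytokines and chemokines (14 with all libraries, 18 without library 1). Depth was lowest in library 1, and mitochondrial transcripts made up 2.27% of it against 3.08% and 3.27% in libraries 2 and 3. The part of either in these differences was not tested.

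**Figure D1:**
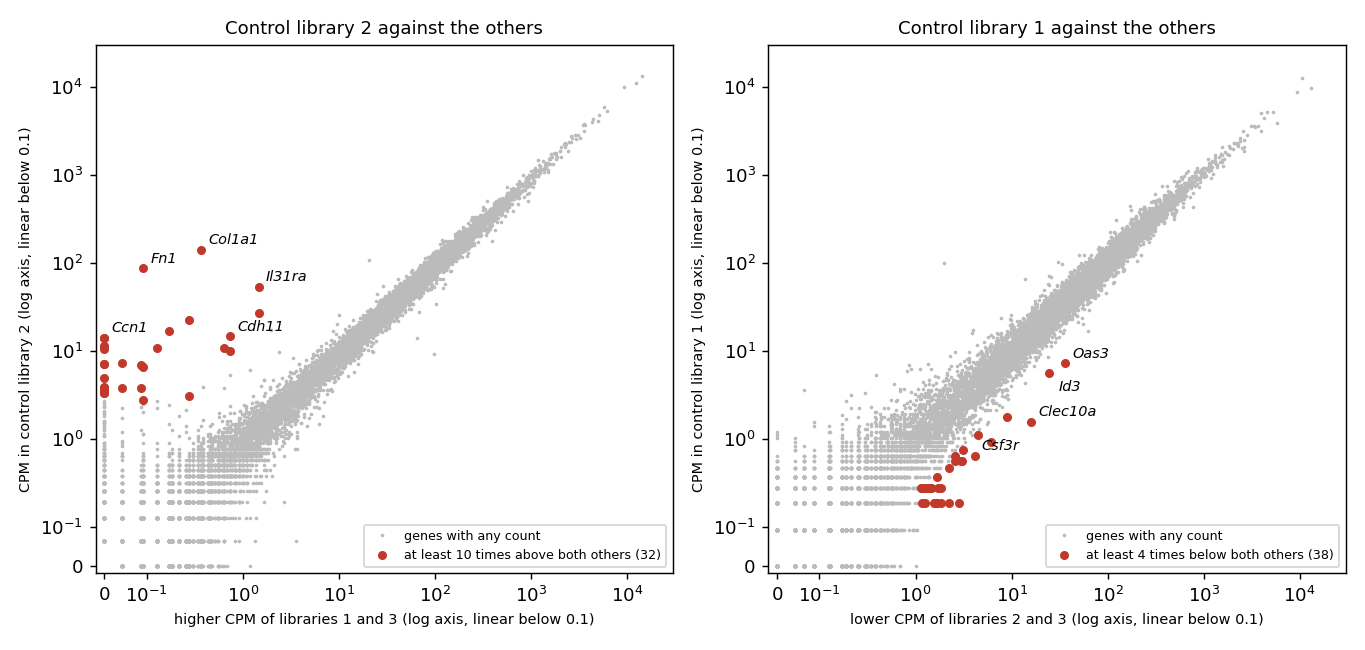
CPM of every gene with a count, on log axes that are linear below 0.1, in library 2 against the higher of the others (left) and in library 1 against the lower of the others (right). The red points are the 32 genes at least 10 times higher in library 2, led by Col1a1 and Fn1, and the 38 genes at least 4 times lower in library 1, among them Oas3 and Id3.

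The most abundant transcripts were those of mitochondria, iron storage, translation and glycolysis, with 1 secreted immune-related protein among them. By CPM, mt-Co1 (9664, 13086 and 14305 CPM in libraries 1, 2 and 3) and Fth1, the ferritin heavy chain (12502, 10945 and 10534), were the highest. Eef1a1 followed at 9357 ± 600, Ftl1, the ferritin light chain, at 5542 ± 514, and mt-Cytb, a subunit of mitochondrial complex III, at 5121 ± 1124 CPM. Next came the glycolytic enzyme Pkm (4791 ± 281), the nucleolar protein Ncl (4345 ± 569), Gapdh (4332 ± 72.8) and mt-Nd1 (3789 ± 605). Spp1 (osteopontin), a secreted phosphoprotein of macrophages and bone, was the tenth gene, at 3557, 3650 and 3661 CPM. Its libraries differed by only 1.58% (CV). The elongation factor Eef2, the chaperones Hsp90ab1 and Hspa8, the enzyme Eno1 and the ribosomal protein Rplp0 completed the 15 highest, at 2825 to 3563 CPM. The 15 largest genes of each library, picked library by library, took 7.77% to 8.31% of its counts.

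Per kilobase of exon, Spp1 was the eighth gene at 2198 ± 34.7, just below mt-Nd2, a subunit of complex I (2308 ± 456), whose library values spanned that of Spp1. The 7 genes above Spp1 were mt-Co1 (7995 ± 1557), mt-Cytb (4477 ± 982), Ftl1 (4136 ± 384), mt-Nd1 (3959 ± 632), Eef1a1 (3753 ± 241), Fth1 (3265 ± 299) and mt-Nd2. The chromatin protein Ptma (1896 ± 292), the ribosomal proteins Rps3a1 (1730 ± 156), Rplp0 (1714 ± 5.70) and Rplp1 (1434 ± 399), mt-Nd6 (1409 ± 351), mt-Nd5 (1358 ± 200) and Hsp90ab1 (1173 ± 31.3) filled the places to 15. Ferritin and ribosomal protein genes have many near-identical processed copies, and how reads shared with those were counted is not given in the sources used here, so their levels are uncertain.

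Of the 10 lineage markers, 8 were expressed, and the 2 that were not are a cytokine receptor and a transcription factor of conventional dendritic cell development. Itgax (CD11c), the integrin used to gate dendritic cells, had 70.2, 58.0 and 55.4 CPM in libraries 1, 2 and 3 (ENSMUSG00000030789.9, chromosome 7, 128129547 to 128150657, mm10). Spi1 had 169, 156 and 166 (ENSMUSG00000002111.8, chromosome 2, 91082390 to 91115756) and Irf8 had 42.3, 47.8 and 46.7 (ENSMUSG00000041515.10, chromosome 8, 120736358 to 120756694). All 3 were steady, with CVs of 12.9%, 3.96% and 6.39%. Flt3, the receptor that drives dendritic cell development, had 0, 1 and 0 counts (ENSMUSG00000042817.15, chromosome 5, 147330741 to 147400489). Batf3, the factor required for cDC1, had 1, 4 and 2 counts (ENSMUSG00000026630.9, chromosome 1, 191097847 to 191108945). Both were thus far below 1 CPM in every library.

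Markers of macrophages and monocytes were present in all libraries. Csf1r (ENSMUSG00000024621.16, chromosome 18), the receptor of the macrophage growth factor, had 288, 250 and 215 CPM. Adgre1 had 71.5, 105 and 88.9 (ENSMUSG00000004730.15, chromosome 17, 57358691 to 57483527), and Lyz2, the myeloid lysozyme, had 144, 98.8 and 108 (ENSMUSG00000069516.8, chromosome 10, 117277331 to 117282321). Fcgr1 (CD64), the high-affinity IgG receptor, had 38.6, 39.3 and 37.2 (ENSMUSG00000015947.10, chromosome 3, 96282909 to 96293969). Cd74 (ENSMUSG00000024610.15, chromosome 18), the invariant chain that accompanies MHC class II molecules, had 239, 275 and 250 CPM. Csf1r and Lyz2 were highest in library 1 and Adgre1 was lowest there.

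Per kilobase the order of the markers was Cd74 (152 ± 11.1), Lyz2 (88.7 ± 17.9), Spi1 (60.7 ± 2.41), Csf1r (43.5 ± 6.38), Adgre1 (27.4 ± 5.23), Fcgr1 (14.8 ± 0.412), Itgax (12.7 ± 1.65) and Irf8 (6.47 ± 0.414). Batf3 (0.0896 ± 0.0588) and Flt3 (0.00339 ± 0.00588) came last. Library values of neighbours in this order did not overlap except those of Fcgr1 and Itgax, where the highest Itgax value (14.6) lay above the lowest Fcgr1 value (14.4). Against the label of a dendritic cell line, Itgax, Spi1, Irf8 and Cd74 were expressed while Flt3 and Batf3 were not, and the macrophage markers Csf1r, Adgre1, Lyz2 and Fcgr1 were expressed with them.

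**Figure D2:**
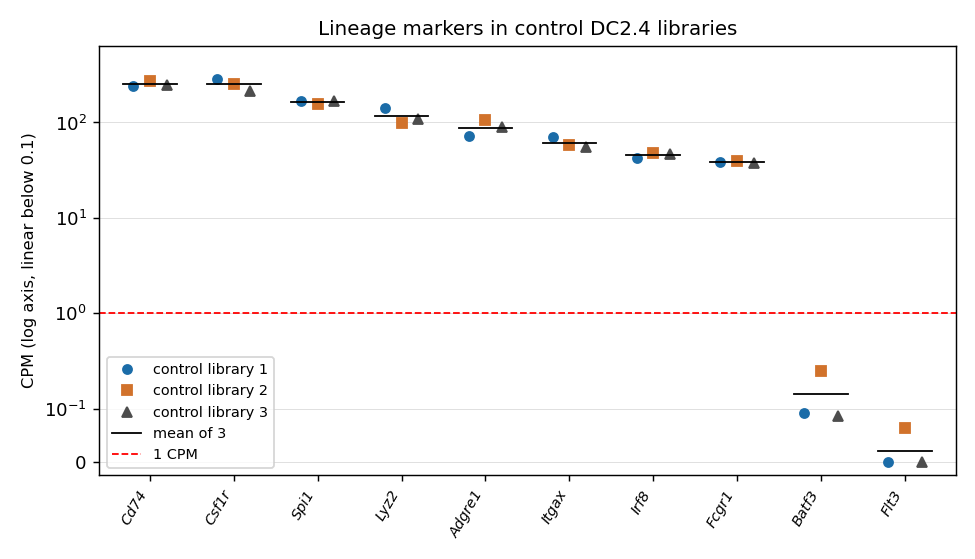
CPM of the 10 lineage markers in each control library (points) with the mean of the 3 libraries (horizontal lines), on a log axis that is linear below 0.1, and the 1 CPM threshold as a dashed line. Fcgr1 and the 7 markers to its left lie at 37.2 CPM or more in every library, and Batf3 and Flt3 lie below 1 CPM.

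Genes shared by leukocytes were expressed almost throughout. Of 18 pan-leukocyte genes, 17 were expressed, where 34.2% of all genes and 47.6% of protein-coding genes were, and the list's median was 44.2 CPM per kilobase against 0.0246 for all genes of the table. The highest per kilobase were the GTPase regulator Arhgdib (237 ± 29.1), the tetraspanin Cd53 (187 ± 3.49), the actin bundler Lcp1 (144 ± 5.88) and the lysosomal protein Laptm5 (138 ± 50.1). They were followed by the adaptor Hcls1 (85.8 ± 7.19), the actin regulator Coro1a (76.9 ± 10), the GTPase Rac2 (55.0 ± 2.15) and Vav1 (52.8 ± 6.14). Laptm5 was uneven, at 735, 460 and 371 CPM in libraries 1, 2 and 3. Ptprc (CD45), the surface phosphatase that defines leukocytes, had 222, 271 and 274 CPM, and it is named here after its value was seen. Cd48, a ligand of the receptor 2B4, was the member not expressed, with 0, 1 and 3 counts. Members with the lowest counts otherwise were Spn (CD43; 7.24, 8.55 and 8.17 CPM), Cd52 (14.9, 18.5 and 19.4) and Cd37 (35.4, 42.4 and 40.3).

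Of 13 genes shared by conventional dendritic cells 4 were expressed (30.8%), a share near that of all genes (34.2%), and the list median was 0.0269 CPM per kilobase. They were Itgax, the tryptophan-pathway enzyme Haao (10.2, 13.6 and 12.9 CPM), the inhibitory receptor Btla (5.50, 2.95 and 4.13) and Zbtb46. Zbtb46, a zinc finger factor largely restricted to conventional dendritic cells among myeloid cells, had 6.04, 8.67 and 9.38 CPM. At 0.944 ± 0.206 per kilobase it stood above 6.90% of expressed genes only. Jaml, an adhesion molecule, had 3, 6 and 15 counts, and Kmo, a second kynurenine-pathway enzyme, had 5, 7 and 6. P2ry10, Htr7, Hepacam2, Dpp4 and Adam19 had at most 2 counts in any library, and Bcl11a had 0.

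Of 20 cDC1 genes 8 were expressed (40%, between the 34.2% of all genes and the 47.6% of protein-coding ones), with a list median of 0.0795 per kilobase. Expressed per kilobase were Id2, an inhibitor of helix-loop-helix factors (29.8 ± 11.4), the sialoprotein Cd24a (28.0 ± 5.57) and Wdfy4, which is needed for cross-presentation (27.0 ± 4.36). Rab7b (13.5 ± 0.210), the adhesion molecule Cadm1 (10.2 ± 0.532), Irf8, the lipid amidase Naaa (5.81 ± 0.188) and the integrin Itgae (CD103; 0.267 ± 0.0246) followed. Wdfy4 had 292, 326 and 235 CPM. Id2 was lowest in library 1 (42.6, 77.7 and 97.7 CPM). Clec9a, the receptor for actin of dead cells, Cd8a, Gcsam, Cxcl9 and Tlr11 had 0 counts in all libraries. Xcr1, the chemokine receptor that defines the subset, had 4, 5 and 6 counts, and is named here after its value was seen.

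The cDC2 list gave 8 of 17 expressed (47.1%, near the share of protein-coding genes; median 0.206 per kilobase). Sirpa, the inhibitory receptor for CD47, led it at 262, 301 and 284 CPM (57.6 ± 4.02 per kilobase), followed by the receptor Notch2 (12.8 ± 2.43) and Itgam (CD11b; 6.14 ± 1.05). Of the exonic bases of Itgam, 68.7% are shared with another annotated gene, so its level is uncertain. Clec10a (4.39 ± 3.43), the cytokine Ltb (2.97 ± 1.08), Tnip3 (1.95 ± 0.230), Klf4 (1.33 ± 0.243) and Irf4 (0.632 ± 0.344) were the other expressed members. Irf4, the factor of cDC2 cells, had 1.19, 4.40 and 3.70 CPM, and was thus far below Irf8. Clec12a, an inhibitory lectin, lay around the threshold at 1.10, 0.943 and 1.38 CPM. Cd209a, Clec4a4, Cd209d and Tbx21 had 0 counts.

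Of 17 genes of plasmacytoid dendritic cells, the interferon-producing type, 9 were expressed (52.9%, near the 47.6% of protein-coding genes; median 0.860 per kilobase). The highest per kilobase were the tetherin gene Bst2 (45.1 ± 1.86), the RNA sensor Tlr7 (11.9 ± 2.22), Cox6a2 (5.56 ± 1.03) and Pacsin1 (4.69 ± 1.23). The DNA sensor Tlr9 (3.12 ± 0.467), Runx2 (3.01 ± 0.393), the collagen receptor Lair1 (2.0 ± 0.419) and Tcf4 (1.83 ± 0.157) came next. Tcf4, the lineage factor of these cells, had 45.2, 51.1 and 53.6 CPM over 27382 bases of exon, joined over all its annotated transcripts. Siglech and Spib, which mark the type, and Klk1 had 0 counts, Ly6d had 0, 1 and 0, and Cd300c straddled the threshold (0.458, 0.314 and 1.12 CPM).

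Of 22 genes gained when dendritic cells mature and migrate 12 were expressed (54.5%, against 47.6% of protein-coding genes), with a median of 0.619 per kilobase. Marcksl1, an actin-linked protein (81.4 ± 4.85), and Tmem123 (37.8 ± 1.55) were the highest. The costimulatory ligands Cd86 (34.8, 43.1 and 45.8 CPM) and Cd80 (19.1, 25.1 and 25.5) were expressed at 11.3 ± 1.57 and 6.28 ± 0.961 per kilobase. Relb, the NF-kB subunit of mature dendritic cells (3.63 ± 0.551), the receptor Cd40 (2.67 ± 0.926), Cd274 (1.69 ± 0.359), which encodes PD-L1, and the chemokine Ccl22 (0.954 ± 0.316) followed. Cd274 had 4.76, 6.22 and 7.35 CPM. Lamp3 (1.83, 0.880 and 0.172 CPM) and the chemokine Ccl5 (0.183, 1.13 and 0.602) straddled the threshold. Ccr7, the receptor that guides mature cells to lymph nodes, had 0, 0 and 1 counts, and Il12b, Tnfsf4 and Apol7c had 0.

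Of 37 macrophage genes 21 were expressed (56.8%, against 47.6% of protein-coding genes), with a median of 0.873 per kilobase over all members. The highest were the endosomal protein Cd68 (651, 576 and 521 CPM; 463 ± 51.8 per kilobase) and Gpnmb, a lysosome-linked glycoprotein (2275, 2143 and 2091 CPM; 333 ± 14.5 per kilobase). The galectin Lgals3 (163 ± 56.8), the protease Ctsd (112 ± 14.1), Lyz2, Csf1r, the Fc receptor Fcgr3 (32.5 ± 4.94) and the LPS co-receptor Cd14 (28.9 ± 2.72) came next. Lgals3 was higher in library 1 (425 CPM) than in libraries 2 and 3 (237 and 248). C1qb, a complement chain of tissue macrophages, had 0.550, 1.19 and 0.430 CPM, and the scavenger receptor Msr1 had 1.19, 0.880 and 0.387. The members not expressed include several receptors of tissue macrophages. The mannose receptor Mrc1 had 0, 4 and 1 counts and Mertk had 0, 1 and 5, both named after their values were seen. Lyve1 had 0, 0 and 1 counts, Maf, Folr2 and Marco had 0, 1 and 0, and Vsig4 and Timd4 had 0. Of the exonic bases of Folr2, 63.1% are shared with another gene, so its level is uncertain.

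Of 24 monocyte genes 12 were expressed (50%, near the 47.6% of protein-coding genes), with a median of 0.771 per kilobase. S100a6, a calcium-binding protein, was by far the highest (336, 244 and 239 CPM; 200 ± 40.2 per kilobase). Haptoglobin (Hp, 11.5 ± 1.45), S100a4 (10.7 ± 4.21, with 51.7% of its exonic bases shared with another gene), Gngt2 (4.19 ± 0.558) and the Fc receptor Fcgr4 (3.98 ± 1.85) followed. The factors Klf2 (3.62 ± 1.30) and Nr4a1 (2.76 ± 0.775) and the integrin Itgal (1.63 ± 0.845) were lower, and all 3 were lowest in library 1. Csf3r (0.641, 4.53 and 4.13 CPM) and Vcan (0.458, 1.19 and 0.860) straddled the threshold. Ccr2, the receptor that releases monocytes from marrow, and Ly6c1, F13a1 and Chil3 had 0 counts. Ly6c2, a near-identical copy of Ly6c1, had 3.94, 2.7 and 3.91 CPM and is named after its value was seen. How reads common to both copies were counted is not given in the sources used here.

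Genes of other cell types were close to absent, in lists whose expressed shares were all below the 34.2% of all genes. Expressed members were 2 of 15 for neutrophils and their granules, 1 of 10 for mast cells and basophils, 2 of 20 for lymphocytes, 1 of 12 for epithelium and endothelium and 1 of 11 for erythroid and megakaryocytic cells. The summed levels in libraries 1, 2 and 3 were 12.5, 19.0 and 19.1 CPM for the neutrophil list, 1.28, 2.95 and 2.28 for mast cells and 10.4, 10.4 and 9.72 for lymphocytes. The epithelial and endothelial list summed to 31.7, 33.5 and 28.9 CPM and the erythroid and megakaryocytic list to 36.5, 30.3 and 38.0, nearly all of it from 1 gene each. The neutrophil members expressed were the factor Cebpe (9.16, 13.1 and 14.8 CPM) and the collagenase Mmp8 (1.65, 1.76 and 1.12), while Prtn3 straddled the threshold (0.916, 2.51 and 2.15). Ly6g, Mpo, Ctsg, Ltf and Retnlg, defining genes of granulocytes, had 0 counts. Cma1, a mast cell protease, had 1.01, 2.39 and 1.98 CPM, with Kit and Gata2 at 0.

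The lymphocyte members expressed were the kinase Lck (5.04, 4.09 and 4.56 CPM) and the receptor Il7r (4.3, 5.15 and 4.09). Defining T and B cell genes, Cd3e, Cd3g, Ms4a1 and Pax5, had 0 counts. Vwf (von Willebrand factor), a clotting protein of endothelium and platelets, had 31.4, 32.5 and 28.1 CPM, while the endothelial cadherin Cdh5 had 0, 1 and 0 counts. Pf4, a platelet chemokine, had 34.3, 28.2 and 35.4 CPM (45.3 ± 5.35 per kilobase). The erythroid factor Gata1 had 0 counts, and the globins Hba-a2, Hbb-bt and Hbb-bs had at most 1 count in any library. Vwf and Pf4 were steady across libraries and stood out from lists that were otherwise near 0.

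**Figure D3:**
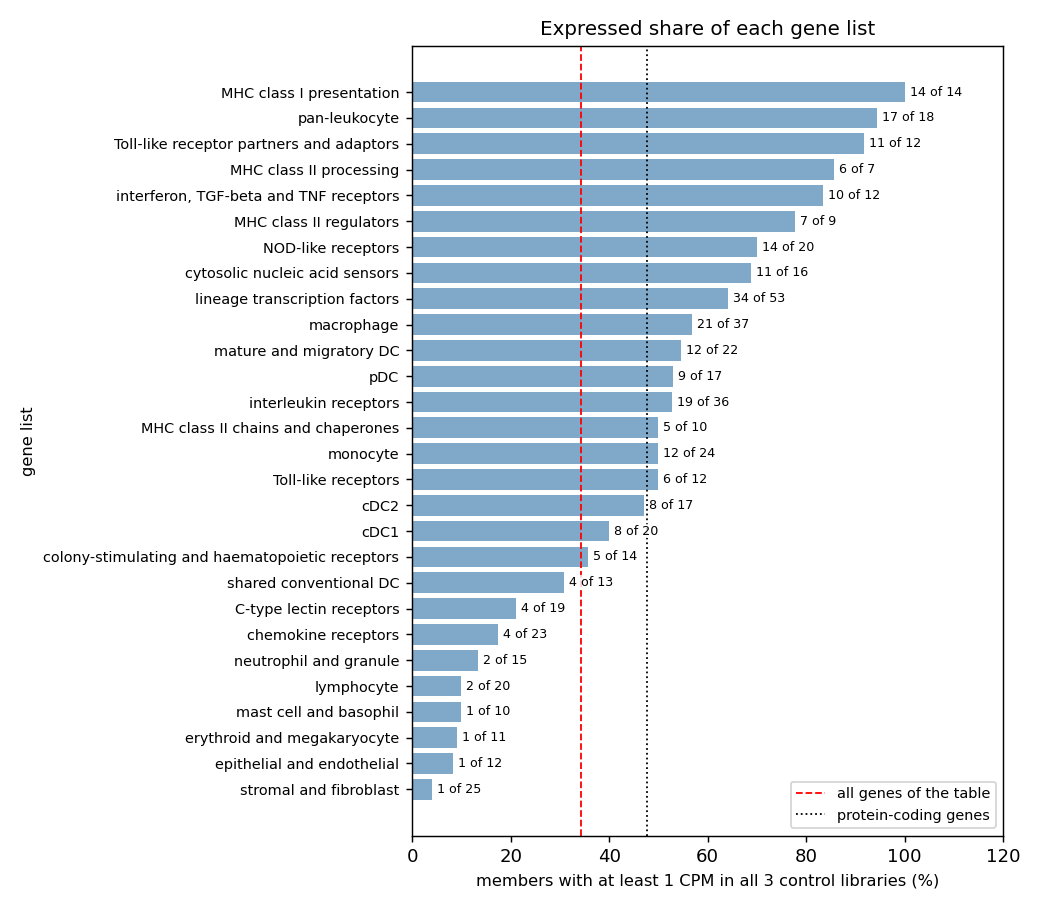
Share of the members in the table that had at least 1 CPM in all 3 control libraries, for lists of immune, lineage and other cell type genes, with the number of members beside each bar. The dashed line is the share of all genes (34.2%) and the dotted line that of protein-coding genes (47.6%). MHC class I and pan-leukocyte genes are at the top and the lists of other cell types at the bottom.

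Among lineage transcription factors, 34 of 53 were expressed (64.2%, against 47.6% of protein-coding genes), with a median of 1.83 per kilobase. The shares of the lists below likewise stand beside 34.2% of all genes and 47.6% of protein-coding ones. Lmo2, a bridging protein of blood progenitors, was the highest (196, 234 and 238 CPM; 103 ± 10.7 per kilobase), then Spi1, and then Cbfb, the partner of the Runx factors (53.7 ± 3.76). Cebpb, a factor of inflammatory macrophages (73.3, 59.7 and 73.1 CPM; 45.7 ± 5.18 per kilobase), and Rbpj, the effector of Notch signals (37.5 ± 6.44), came next. Id2, Ikzf1 (17.2 ± 0.824), which is shared by blood cells, and Nfil3 (15.6 ± 0.563) completed the 8 highest. Ebf1, the B cell factor, had 0, 37 and 0 counts, so that it too was seen in library 2 alone. Tfec, Ahr, Gata1, Gata2, Spib, Pax5 and Bcl11a had 0 counts in all libraries. Runx3, named after its value was seen, was uneven, at 90.0, 49.6 and 50.2 CPM.

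Of the class II pathway, the invariant chain was expressed and the peptide-loading genes were expressed in part. The classical chains H2-Aa and H2-Ab1 were below 1 CPM in every library. Of 10 chain and chaperone genes 5 were expressed (50%, near the 47.6% of protein-coding genes), with a median of 0.383 per kilobase. Cd74 was the highest, at 152 ± 11.1 per kilobase. H2-Eb1, the beta chain of the I-E molecule, had 9.62, 16.8 and 20.8 CPM (8.11 ± 2.92 per kilobase), lowest in library 1. H2-Aa and H2-Ab1, which form the I-A molecule, had 4, 11 and 3 counts and 0, 4 and 0 counts. As background, C57BL/6 mice lack a functional I-E alpha chain and present on I-A. The gene of that alpha chain is not in the list, so its level is not given here. Of the exchange factors that load peptide, H2-DMb1 had 13, 14.3 and 15.8 CPM (8.54 ± 0.828 per kilobase), H2-DMa 2.2, 2.45 and 2.19 (0.662 ± 0.0428) and H2-DMb2 1, 3 and 5 counts. The modulator chain H2-Oa had 1.56, 2.83 and 4.34 CPM and its partner H2-Ob had 0, 1 and 3 counts, while H2-Eb2 had 0.

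Ciita, the coactivator that switches on class II genes, had 2, 3 and 4 counts. The other regulators were expressed, 7 of 9 in all (77.8%). These were the promoter-binding factors Rfx5 (20.4, 40.2 and 36.4 CPM), Rfxap (15.8, 14.1 and 14.7) and Rfxank (5.95, 9.81 and 10.2), with Nfya, Nfyb, Nfyc and Creb1 at 30.5 to 79.2 CPM on average. The ubiquitin ligase Marchf1, which removes class II molecules from the surface, had 6, 1 and 5 counts. Lysosomal processing enzymes were among the higher genes of the cells, with 6 of 7 expressed (85.7%, median 201 per kilobase). Per kilobase, Ctsz stood at 491 ± 60.6, Lgmn at 260 ± 23.7, Ctsb at 238 ± 34.4, Ctss, the protease that trims the invariant chain, at 201 ± 20.1, Ctsl at 169 ± 15.5 and Ctsd at 112 ± 14.1. Ctsh had 0, 0 and 1 counts.

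Class I presentation was expressed in full, 14 of 14 genes (100%, median 15.1 per kilobase). B2m, the light chain of class I molecules, had 396, 513 and 558 CPM (569 ± 96.8 per kilobase), and the heavy chains H2-K1 and H2-D1 had 365, 469 and 518 and 333, 387 and 388 CPM. B2m, H2-K1 and H2-D1 were lowest in library 1. The heavy chains are near-identical to other class I genes, so their levels are uncertain. The chaperones Calr (400 ± 19.3 per kilobase) and Pdia3 (271 ± 21.8) were high, as they are in most cells. The peptide transporter subunits Tap1 (3.90 ± 0.335) and Tap2 (9.81 ± 0.581), the loading proteins Tapbp (18.3 ± 2.31) and Tapbpl (3.30 ± 0.404) and the trimming enzyme Erap1 (7.14 ± 0.124) were lower. The immunoproteasome subunits Psmb10, Psmb8 and Psmb9 stood at 21.2 ± 2.35, 12.0 ± 1.83 and 2.18 ± 0.155. Nlrc5, the coactivator of class I genes and a relative of Ciita, had 21.4, 20.7 and 15.7 CPM (2.27 ± 0.364 per kilobase).

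**Figure D4:**
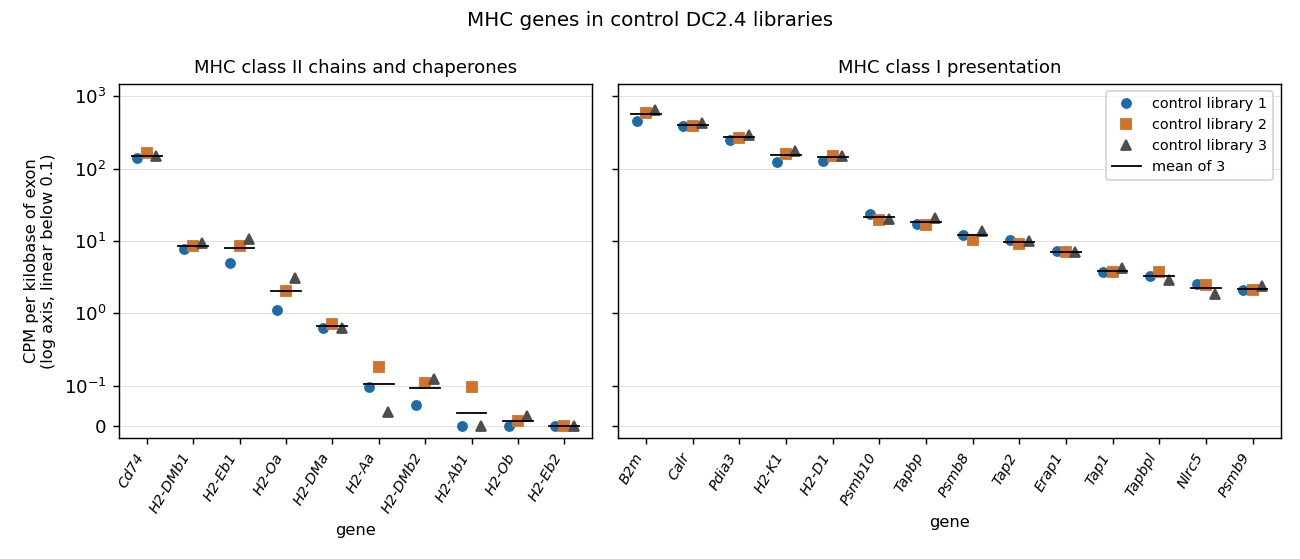
CPM per kilobase of exon of the MHC class II chain and chaperone genes (left) and the class I presentation genes (right) in each control library (points) with the mean (horizontal lines), on a log axis that is linear below 0.1. Cd74 lies at 152 while H2-Aa and H2-Ab1 lie near 0, and every class I gene has a mean of at least 2.18.

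Receptors for colony-stimulating factors were present for M-CSF and GM-CSF. The list gave 5 of 14 expressed (35.7%, near the 34.2% of all genes), with a median of 0.184 per kilobase. Besides Csf1r, these were the GM-CSF receptor alpha chain Csf2ra (55.9, 44.7 and 40 CPM; 16.3 ± 2.84 per kilobase) and the common beta chain Csf2rb (75.7, 58.2 and 53.5; 8.58 ± 1.60). The IL-3-specific copy Csf2rb2 (41.9, 27.8 and 25.4; 6.69 ± 1.89) is near-identical to Csf2rb, so the split between them is uncertain. The fifth was Crlf2, a chain of the TSLP receptor (9.89, 6.29 and 4.77 CPM). All 5 were highest in library 1 and lowest in library 3. Csf3r and Epor (0.641, 0.440 and 1.03 CPM) straddled the threshold. Il3ra, the alpha chain of the IL-3 receptor, had 1, 0 and 0 counts, Ghr had 2, 1 and 3, Lepr had 1, 0 and 1, and Kit and Prlr had 0.

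Interleukin receptor chains were expressed at 19 of 36 (52.8%, near the 47.6% of protein-coding genes), with a median of 0.962 per kilobase. The highest per kilobase were the common gamma chain Il2rg (20.1 ± 4.64), the decoy receptor Il1r2 (13.3 ± 1.66), Il6ra (13.2 ± 3.61) and its signalling partner Il6st (11.1 ± 1.57). Il6ra was highest in library 1, at 150 against 96.2 and 96.5 CPM. Il13ra1 (7.29 ± 0.486), Il17ra (6.89 ± 0.793), Il18rap (6.88 ± 0.214) and Il10rb (5.16 ± 1.53) followed. Receptors were not always matched by their partners. Il18r1, which binds IL-18 together with Il18rap, had 1, 4 and 3 counts, and the signalling IL-1 receptor Il1r1 had 1.56, 1.45 and 1.03 CPM. Both were named after their values were seen. Il31ra, at 1.47, 53.2 and 0.430 CPM, straddled the threshold. Il5ra, Il13ra2, Il20ra, Il22ra1, Il23r and Osmr had 0 counts.

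Receptors for interferon, TGF-beta and TNF were expressed at 10 of 12 (83.3%, median 7.86 per kilobase). The TNF receptors Tnfrsf1a and Tnfrsf1b stood at 22.2 ± 3.47 and 9.97 ± 1.57 per kilobase and the lymphotoxin receptor Ltbr at 22.2 ± 0.541. The interferon-gamma receptor chains Ifngr2 and Ifngr1 stood at 16.2 ± 2.35 and 11.2 ± 1.55, and the type I interferon receptor chains Ifnar1 and Ifnar2 at 8.43 ± 0.747 and 7.28 ± 0.935. Tgfbr1 and Tgfbr2 were at 7.06 ± 0.445 and 5.71 ± 0.745. Thus both chains of the type I and type II interferon receptors and of the TGF-beta receptor were present. Ifnlr1, the type III interferon receptor, had 1, 0 and 0 counts and the co-receptor Tgfbr3 had 0.

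Chemokine receptors were few and low. Of 23 genes 4 were expressed (17.4%, median 0.0703 per kilobase): Ccr10 (7.05, 9.43 and 9.38 CPM), Cxcr3 (4.58, 2.45 and 2.49), Ccr4 (4.95, 5.28 and 5.16) and Cx3cr1 (6.78, 5.66 and 5.46). Their means per kilobase ran from 1.32 to 4.99, below the median of expressed genes. Ccr1 straddled the threshold (0.458, 1.01 and 0.645 CPM). Ccr8, Cxcr5 and Cxcr2, the next members per kilobase apart from Ccr1, had at most 18 counts in any library. Ccr2, Ccr3, Ccr6, Cxcr1, Ackr1 and Ackr2 had 0 counts. Cxcr4, named after its value was seen, had 2, 0 and 0.

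Toll-like receptors were expressed in part, together with nearly all of their partners. Of 12 receptors 6 were expressed (50%, near the 47.6% of protein-coding genes; median 1.09 per kilobase), and 7 without library 1. Tlr2, the receptor for bacterial lipoproteins, had 121, 93.3 and 107 CPM (35.5 ± 4.57 per kilobase). Tlr13, which recognises bacterial ribosomal RNA, had 83.2, 104 and 99.4 (22.2 ± 2.59). Library values of these neighbours in the order did not overlap per kilobase. Tlr7 (38.2, 51.9 and 55.3 CPM), the LPS receptor Tlr4 (22.5, 30.7 and 30.0), Tlr9 (11.6, 11.9 and 8.99) and Tlr6, a partner of Tlr2 (6.69, 6.03 and 7.05), were the others. Tlr1, the second partner of Tlr2, had 0.366, 2.01 and 1.68 CPM and was the member gained without library 1. Tlr3, the sensor of double-stranded RNA that cDC1 cells express, had 4, 2 and 8 counts. Tlr8 had 2, 5 and 6, Tlr5 had 0, 3 and 2, Tlr12 had 1, 0 and 0, and Tlr11 had 0.

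Partners and adaptors were expressed at 11 of 12 (91.7%, median 7.51 per kilobase). Unc93b1, the chaperone of the endosomal receptors, was the highest (157, 150 and 130 CPM; 48.1 ± 4.65 per kilobase), followed by Cd14, the adaptor Myd88 (22.5 ± 1.36), Cd180 (20.6 ± 4.69) and the kinase Irak1 (19.1 ± 2.89). Traf6 (8.48 ± 0.556), Tirap (6.53 ± 0.846), Ticam1 (5.71 ± 1.05), Irak4 (4.71 ± 0.240), Ly96 (2.4 ± 0.880) and Ticam2 (0.422 ± 0.165) were lower. Ly96 (MD-2), which Tlr4 needs to bind LPS, had 1.56, 2.45 and 3.35 CPM. Ly86, the partner of Cd180, had 2, 12 and 7 counts, while Cd180 itself had 116, 86.7 and 75.4 CPM.

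Cytosolic nucleic acid sensors were expressed at 11 of 16 (68.8%, median 3.82 per kilobase), and at 12 without library 1. Aim2, which starts an inflammasome on DNA, had 94.9, 134 and 160 CPM (37.0 ± 9.32 per kilobase). The DNA sensor Cgas had 65.0, 57.8 and 56.2 (14.5 ± 1.14) and its effector Sting1 had 27.6, 36.3 and 39.3 CPM. Per kilobase, Oasl1 (25.6 ± 3.07), the adaptor Mavs (13.7 ± 1.04), the editing enzyme Adar (10.3 ± 1.31), the kinase Eif2ak2 (10.2 ± 1.93), Oas1a (7.60 ± 0.780) and Oas3 (3.82 ± 2.42) followed. The RNA helicase Ddx58 (RIG-I) had 8.52, 20.9 and 19.1 CPM, and was named after its value was seen. Oas2 (0.916, 6.98 and 6.11) and the helicase Ifih1 (MDA5; 0.550, 1.13 and 0.989) straddled the threshold. Oas3, Oas2, Ddx58 and Ifih1 were all lowest in library 1. Zbp1 had 0 counts and Ifi204 had 2, 9 and 8. Trex1 was also at 0, but all of its exonic bases (100%) are shared with another annotated gene, so its level is uncertain.

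Of NOD-like receptors and their partners 14 of 20 were expressed (70.0%, median 1.39 per kilobase). Nlrp3, the best-known inflammasome sensor, had 77.6, 85.8 and 85.9 CPM (20.5 ± 1.18 per kilobase), and its effector protease Casp1 had 13, 17.3 and 20.3 (11.3 ± 2.44). Nlrp10 (6.30 ± 1.11), Nlrp1b (6.29 ± 1.15), Naip2 (4.83 ± 0.429), Nlrc3 (4.18 ± 0.671), Nlrc5 and Naip5 (1.90 ± 0.475) followed. The Naip genes are near-identical copies, so their separate levels are uncertain. Pycard (ASC), the adaptor that joins Aim2 and Nlrp3 to Casp1, had 1, 16 and 8 counts (0.0916, 1.01 and 0.344 CPM). Its sensors and protease were thus expressed in all libraries while it stayed around or below the threshold. Nlrp6, Nlrp12 and Mefv had 0 counts.

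Surface lectins that sense fungi and bacteria were expressed at 4 of 19 (21.1%, median 0.0288 per kilobase). Clec4d (69.6, 85.6 and 82.9 CPM; 49.6 ± 5.35 per kilobase) and Clec4e (Mincle; 52.0, 86.1 and 90.6; 15.4 ± 4.25) form a receptor pair for mycobacterial glycolipid. Clec5a had 120, 111 and 121 CPM (30.5 ± 1.40 per kilobase), and Clec10a was the fourth. Below the rule per kilobase came Clec4a3 (0.353 ± 0.0752), Clec12a (0.206 ± 0.0397), Clec4n (0.110 ± 0.0957) and Clec2d (0.0345 ± 0.0598). Clec9a, Cd209a, Cd209b, Clec1a, Clec1b, Clec14a and Klrb1b had 0 counts.

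**Figure D5:**
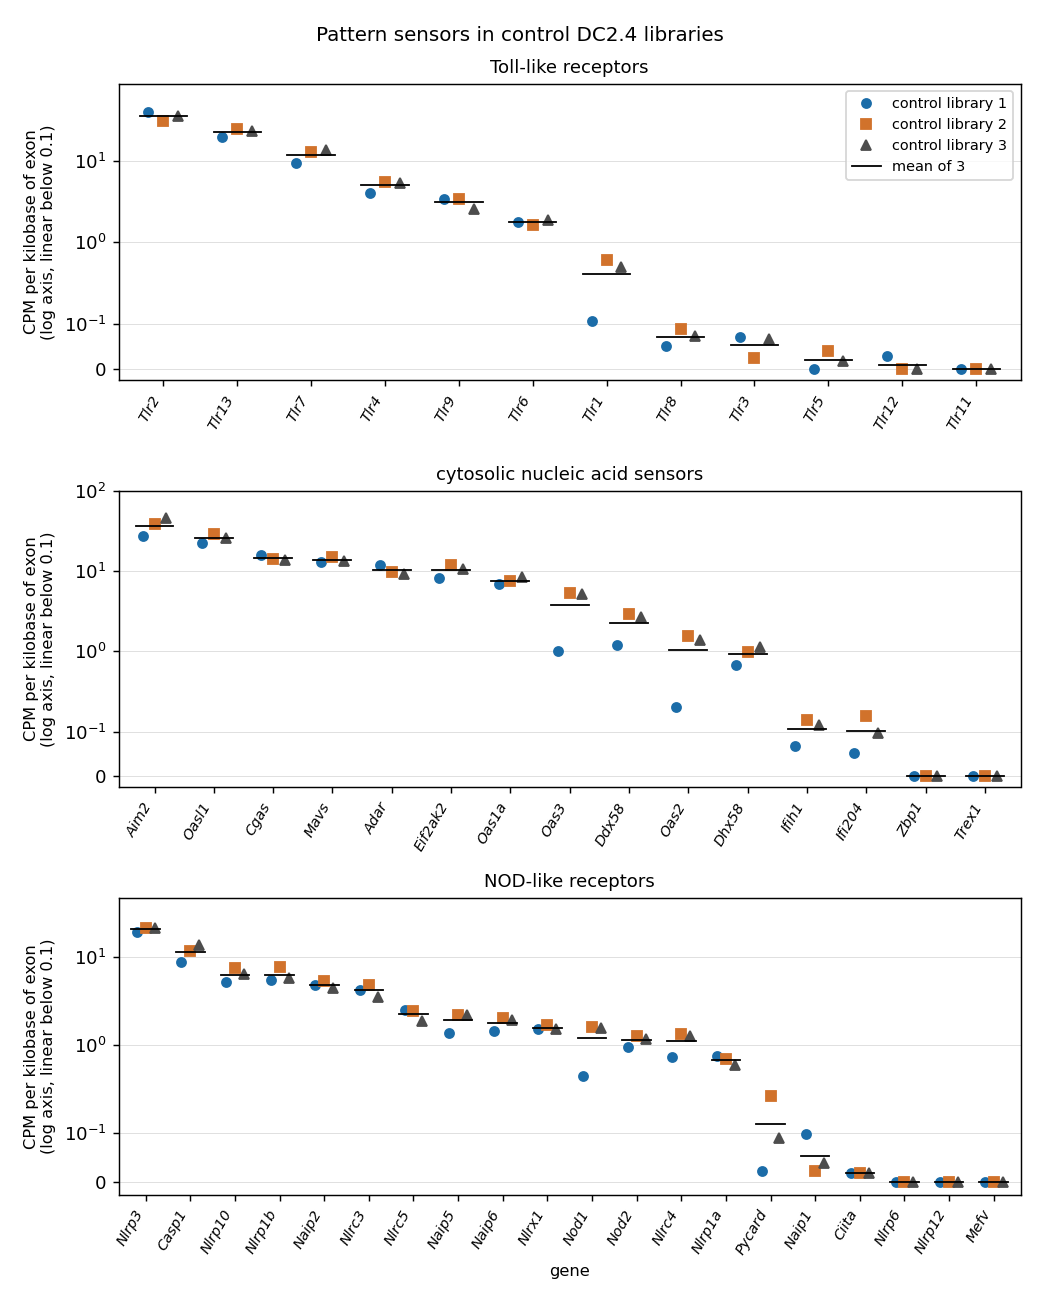
CPM per kilobase of exon of Toll-like receptors, cytosolic nucleic acid sensors and NOD-like receptors in each control library (points) with the mean (horizontal lines), on a log axis that is linear below 0.1, without Sting1, which has no value per kilobase. Tlr2, Aim2 and Nlrp3 lead their panels at 35.5, 37.0 and 20.5, and library 1 is the lowest for Tlr1, Oas3, Oas2 and Ddx58.

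Genes tied to how the line was made, and to its growth, gave 9 of 13 expressed (69.2%). Proliferation genes were high, with Pcna at 177 ± 14.5, Mki67 at 83.9 ± 14.5, Top2a at 81.6 ± 10.8, Ccnb1 at 74.6 ± 0.934 and Mcm2 at 40.6 ± 5.84 per kilobase. The tumour suppressor Trp53 stood at 44.9 ± 1.17. Myc had 7, 10 and 14 counts (0.641, 0.629 and 0.602 CPM) and Csf2, which encodes GM-CSF, had 1, 3 and 5. The kinases Araf and Braf stood at 8.07 ± 0.710 and 7.05 ± 0.934 per kilobase. Whether transcripts of vector copies were counted under these symbols is not given in the sources used here. Mycn and the cell cycle inhibitor Cdkn2a had 0 counts. The 10 reference genes were all expressed, from Tbp (3.19 ± 0.171 per kilobase) to Eef1a1, with Gapdh at 4407, 4262 and 4326 CPM and Actb at 2607, 2373 and 2499.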

How the data were processed

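RNA-seq of DC2.4 cells was used as the per-gene counts deposited by the authors for the 3 control libraries; the 3 knockout columns were not used. Per the labels' protocols, total RNA was extracted with TRIzol and libraries were made with a KAPA Hyper Prep kit. Per the submitters' processing notes the genome build was mm10 and Trimmomatic 0.39, STAR 2.7.5c and StringTie 2.1.7 were used, with no role stated. No source used here gives the counting step, its strand setting or its annotation, so genes that overlap, including antisense ones, cannot be told apart.

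Counts were divided by the column total, without further scaling, to give CPM, and by the union exon length of GENCODE vM21 to give CPM per kilobase. That length joins the exons of all annotated transcripts of a gene. Where it exceeds the transcripts present, the value per kilobase is too low, and orders of genes depend on it. A length was found for 98.7% of expressed genes, but not for Sting1, Marchf1 or Aldoa. Aldoa is among the more abundant genes by CPM, and it has no place in the orders per kilobase. A gene was expressed at 1 CPM or more in all 3 libraries. The spread was taken as the SD, the CV and the biological coefficient of variation of an edgeR 4.0.16 fit with an intercept only (R 4.3.3), which was tested on simulated data. In simulated counts with a true value of 20%, it returned 19.8%. There is no comparison between groups and therefore no test or p-value. Libraries totalled 10918498 to 23250065 counts.

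The text names the 10 markers, the 15 highest genes by CPM and per kilobase, and up to 10 genes high in 1 library. From each list it names all members of lists of up to 14 and, of longer lists, up to 8 expressed ones highest per kilobase, up to 4 lowest and any straddling 1 CPM. Others are said to be chosen after their values were seen, or have 0 counts or serve as defining markers. The members and lists were chosen with earlier results of these data known, and 6 lists and the rule on genes low in 1 library were added after the data were seen. Motifs were searched in RefSeq promoter windows (GRCm38.p6). Ifi30, Clec7a, Mx1 and Mx2 were not analysed here, and some members of the lists are not reported here. Alternatives were another threshold, normalization, unit or filter and leaving out each library.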

Additional observations from a re-analysis of the deposited data

How the results depend on the processing

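The number of expressed genes (10664) was 11318 at 0.5 CPM, 10066 at 2 CPM, 11097 by the mean of the 3 libraries, 10653 with either TMM or DESeq2 size factors, 9571 at 1 CPM per kilobase and 10730 to 10915 with a library left out. In 24 of 31 lists the number of expressed members stayed within 1.5 times the reported one in every setting. At 1 CPM per kilobase the shared dendritic cell list had 2 expressed genes, the mature dendritic cell list 7, the neutrophil list 1, the mast cell list 0 and the lymphocyte list 1. At 2 CPM the neutrophil list had 1 and the mast cell list 0. At 0.5 CPM the stromal list had 2 and the erythroid list 3, and by the mean of the 3 libraries the stromal list had 7. At 5 times above both others, library 1 held 3 genes of its own and library 2 held 67, and at a minimum of 5 CPM library 2 held 20. The biological coefficient of variation was 9.90% to 17.3% with a library left out and 14.2% to 16.6% under the other settings. The causes were not tested. No paired analysis was possible because no groups were compared and no result comes from a test. At the depth of these libraries a gene with 0 counts may still be present at up to 0.0599 CPM.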

Other observations

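The lists in these paragraphs were drawn up after values of these libraries were seen, so their counts describe the cells and support nothing further. Genes of lipid-laden macrophages were expressed throughout, 16 of 16 with a median of 105 CPM per kilobase, where 47.6% of protein-coding genes were expressed. Beside Spp1 and Gpnmb, they include the tetraspanin Cd9 (494 ± 29.9 per kilobase), the signalling adaptor Tyrobp (194 ± 29.2), the lipase Lpl (167 ± 24.8) and the lipid receptor Trem2 (26.2 ± 1.62). Lpl was higher in library 1 (2051 CPM) than in libraries 2 and 3 (1570 and 1637). Apoe, the lipid carrier of many macrophages, had a mean of 11.2 CPM only. Of 19 genes of osteoclasts and cell fusion, 13 were expressed (68.4%), with the fusion protein Dcstamp at 84.4, 93.1 and 98.5 CPM, its relative Ocstamp at 12.1, 12.6 and 9.42, and the receptor Tnfrsf11a (RANK) at 41.6, 52.7 and 45.0. The bone-resorbing enzymes Ctsk and Mmp9 had at most 7 counts in any library, and Acp5 had 1.10, 1.19 and 1.76 CPM.

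Of 34 cytokines and chemokines 14 were expressed, and 18 without library 1. The share of 14 (41.2%) lay between the 34.2% of all genes and the 47.6% of protein-coding ones. Ccl3, a chemokine for monocytes and T cells, led them at 312, 490 and 522 CPM (576 ± 148 per kilobase), with Ccl4 (45.3, 95.7 and 95.1 CPM), Ccl2 (88.2, 143 and 145) and Tnf (39.4, 73.8 and 91.0) also lowest in library 1. Ccl9 had 185, 162 and 217 CPM, and the macrophage growth factor Csf1 had 150, 181 and 175, so that ligand and receptor were expressed together. Tgfb1 (128, 98.3 and 109 CPM) and Il18 (4.76, 8.49 and 11.3) were also expressed, and Il27 straddled the threshold (0.641, 0.691 and 1.16). Il12a and Il12b had 0 counts, Il6 had 1, 1 and 1 and Il1b had 0, 3 and 2.

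The summed level was 163, 267 and 256 CPM for the interferon-induced list and 350, 624 and 712 CPM for the immediate early list. Fos had 16.5, 63.2 and 63.4 CPM and Jun had 59.4, 117 and 128, while Isg15 straddled the threshold at 0.824, 2.33 and 1.85 and Ifnb1 had 0 counts. Of 12 platelet and megakaryocyte genes 5 were expressed (41.7%, between the 34.2% of all genes and the 47.6% of protein-coding ones). These were Pf4, Vwf and the factors Lmo2, Tal1 (41.8, 32.2 and 28.2 CPM) and Fli1 (41.9, 49.6 and 51.0), while Itga2b and the platelet glycoprotein Gp1ba stayed below 1 CPM. None of 6 sex-linked genes was expressed. Xist had 0, 0 and 3 counts and Ddx3y 0, 1 and 0, whereas Eif2s3y had 0, 11 and 0.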
